A study of Mus musculus with 7 samples.

Results

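The stellate cells of the i4F pancreas comprised 8354 of the 25643 cells recovered from 3 i4F mice, and of 58473 cells in the whole series. They were taken by the names the authors had given their clusters, as every i4F cell in a cluster whose name held the word stellate. There were 2 such clusters, activated stellate 1 with 6917 cells and activated stellate 2 with 1437 cells. Mouse i4F 1 gave 4393 of the cells, i4F 2 gave 2681 and i4F 3 gave 1280. The 3645 WT cells under a stellate name (1138 in WT 1 and 2507 in WT 2) were the reference. A further 5715 stellate cells of caerulein-treated mice (3675 and 2040) were set beside them as cells of an injured pancreas that carried no OSKM.

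The series measured single-cell RNA of dissociated whole pancreas in 7 C57BL/6 mice aged 2 months. The i4F mice (genotype i4F-B) carried 1 copy each of an inducible cassette in Pparg, which holds the reprogramming factors OSKM (Oct4, Sox2, Klf4, c-Myc), and of the doxycycline-dependent transactivator rtTA in Rosa26. The cassette can be induced in every tissue, so the neighbouring epithelial, vascular and immune cells of these mice carried it too. Both the 2 WT and the 3 i4F mice drank doxycycline at 1 mg/ml with 7.5% sucrose for 7 days, which turns OSKM on in i4F mice. The 2 caerulein mice were WT and received caerulein, a secretagogue that inflames the pancreas, at 100 µg/kg in 7 injections a day on 2 days, with no doxycycline in their label. All groups went through the same enzymatic dissociation, and each mouse was 1 library.

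Pancreatic stellate cells are the resident fibroblast-like cells of the gland and lie around acini, ducts and vessels. In a healthy pancreas they are quiescent, handle vitamin A and lipid and keep up a sparse matrix. After injury they can divide, lay down fibrillar collagen, become contractile myofibroblasts and release inhibitors of matrix breakdown, growth factors and cytokines that act on epithelial and immune cells.

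The markers of fibroblasts were present in every i4F mouse. Levels are given in CPM, counts scaled to equal library totals, which is the share of a gene in the unique molecules (UMIs) summed over the stellate cells of a mouse, in the order of the mice. Gene positions are on GRCm38 (mm10), from GENCODE. Decorin (Dcn, chr10:97479609-97518143), a small collagen-binding proteoglycan, stood at 1614, 2087 and 15893 CPM in i4F 1 to 3, against 123, 47 and 178 CPM in the endothelial cells of the same mice. Type I collagen (Col1a1, chr11:94936224-94953042) was at 3981, 2234 and 1481 CPM, type III collagen (Col3a1) at 5281, 5017 and 2976 CPM and the fibroblast receptor Pdgfra at 70.4, 80.4 and 166 CPM. The levels differed among the mice, with Dcn and Pdgfra highest in i4F 3 and both collagens lowest there.

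The i4F 3 library stood apart from the other two. Activated stellate 2 held 3.28% (144 of 4393) of i4F 1, 4.7% (126 of 2681) of i4F 2 and 91.2% (1167 of 1280) of i4F 3, as cells of all stellate cells. The exact binomial 95% intervals of these shares were 2.77 to 3.85%, 3.93 to 5.57% and 89.5 to 92.7%, and cover counting error only. Nearly all of i4F 3 thus lay in one cluster and nearly all of i4F 1 and 2 in the other. Over the 14818 genes tested, levels in i4F 3 had a Spearman's rho of 0.909 and 0.936 with WT 1 and 2 and of 0.913 and 0.921 with i4F 1 and 2, whereas i4F 1 and 2 had a rho of 0.987 with each other. Genes are not independent replicates, and these values carry no test.

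The median stellate cell of i4F 3 also had fewer UMIs. Median UMIs per stellate cell were 9918, 8942 and 2554.5 in i4F 1 to 3, 4700 and 3605 in WT and 7257 and 3475 in caerulein mice. Cells with under 500 genes made up 6.08%, 6.27% and 16.02% of the 3 i4F libraries. Of 22 acinar markers listed, which fibroblasts should lack, only 3 were among the deposited genes. These 3 summed to 3.3, 21.3 and 945 CPM in i4F 1 to 3 and 402 and 508 CPM in WT. The sums thus leave out the RNA of the other listed acinar genes. The part of depth and of acinar RNA in the differences was not tested, and the calls in the main gene lists are counted with and without i4F 3.

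Levels within each of the 2 clusters are given for 3 genes. The 113 activated stellate 1 cells of i4F 3 carried Timp1, an inhibitor of matrix metalloproteinases, at 9074 CPM, beside 8630.0 and 9466 CPM in the same cluster of i4F 1 and 2. Interleukin 11 (Il11) was at 222, 229 and 259.9 CPM in the activated stellate 1 cells of i4F 1 to 3. Dcn was at 1496, 1936 and 4529.5 CPM in activated stellate 1 and 7873, 8347 and 19688 CPM in activated stellate 2. Timp1 and Il11 lay closer across mice in activated stellate 1 than over all stellate cells, while Dcn was lower there than in activated stellate 2 in each mouse. These levels belong to clusters built from the same genes and carry no test. Activated stellate 2 did not hold the same kinds of cells in each mouse, as the sub-clusters below show.

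The name activated went with other genes in the reference. The WT cluster named activated stellate, with 114 and 161 cells, held smooth muscle actin (Acta2) at 20115 and 16762 CPM. The pericyte gene Rgs5 was at 4792 and 3619.5 CPM there and smooth muscle myosin (Myh11) at 2991 and 2502 CPM. Dcn was at 1725 and 1338 CPM, against 28971 and 27086 CPM in WT quiescent 1 and 21149.9 and 19024 CPM in WT quiescent 2. Its leading genes are those of contractile mural cells and go against its name, so contractile genes are also compared with the 2 quiescent WT clusters alone. The i4F and caerulein tables have a smooth muscle cluster of their own, outside the stellate cells, and the WT table has none.

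Clustering the i4F stellate cells again, by themselves, gave 6 sub-clusters. Sub-clusters 1 to 3 held 2397, 2212 and 1983 cells and came nearly all from i4F 1 and 2 and from activated stellate 1. Sub-cluster 4 held 871 cells, 849 of them from i4F 3, sub-cluster 5 held 564 (331 from i4F 3) and sub-cluster 6 held 327 (3 from i4F 3). The genes that define a sub-cluster are a description and were not tested. The number of sub-clusters depended on the settings, with 12 at a resolution of 0.5 and 8 with log-normalised counts.

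Sub-cluster 1 was led by Crabp2, the neuronal tubulin Tubb3, Krt14 and Anxa8, with the proliferation marker Mki67 at 108 and 109.8 CPM in i4F 1 and 2. Sub-cluster 2 was led by Cxcl13, Hp, Fabp4 and Saa3, with the acute phase protein Saa3 at 547 and 498 CPM in those mice. Sub-cluster 3 was led by Spp1, Tagln, Tnc and Cxcl14 and held Acta2 at 4562, 1439 and 4732 CPM in i4F 1 to 3. The rule that names sub-clusters by their markers gave it the name smooth muscle. It raised 5 of 6 smooth muscle markers, 4 of 12 activated stellate markers and 4 of 10 pericyte markers. In i4F 1 and 2, Acta2 was at 529.5 and 140.1 CPM in sub-cluster 2 and Saa3 at 63.7 and 66.1 CPM in sub-cluster 3. Timp1 was high in all 3, from 5805 CPM in sub-cluster 2 to 15959 CPM in sub-cluster 3 of i4F 2.

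Sub-cluster 4 was led by Gsn, the resting fibroblast gene Clec3b and the acinar enzyme Pla2g1b. The acinar products Reg2 and Pnliprp2 were also among its 10 leading genes, and it raised all 3 acinar markers in the tables, along with the fibroblast markers Dcn, Pdgfra and Lum. The marker rule thus gave it the name acinar, which is not used here since fibroblast genes led it. In i4F 3 it had Dcn at 20291 CPM and Timp1 at 997 CPM. The 7 and 15 cells of i4F 1 and 2 in it were too few for a level. The low depth of i4F 3 lay here and in sub-cluster 5, with medians of 2614 and 1191 UMIs. In sub-cluster 2 its 50 cells had a median of 7057 UMIs, beside 8147 and 8353 in i4F 1 and 2. Other genes still differed among the mice within a sub-cluster, with Spp1 at 337, 309 and 6.06 CPM in sub-cluster 2 and Ccl2 at 216, 369.6 and 3172 CPM in sub-cluster 3 of i4F 1 to 3. rtTA was found in sub-cluster 4 all the same, at 39.2 CPM in i4F 3, beside 46.1 and 56.5 CPM in sub-cluster 3 of i4F 1 and 2.

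Sub-cluster 5 was mesothelial-like. It was led by Slpi, Upk3b and Msln and raised all 9 mesothelial markers. Activated stellate 2 held 550 of the 564 cells of sub-cluster 5 and 849 of the 871 cells of sub-cluster 4. By mouse, sub-cluster 5 had 128, 105 and 331 cells and sub-cluster 4 had 7, 15 and 849. Activated stellate 2 was thus mostly mesothelial-like in i4F 1 and 2 and mostly sub-cluster 4 in i4F 3. Slpi was at 15471, 15858 and 3631 CPM in i4F 1 to 3, against 8.18, 11.4 and 3.51 CPM in sub-clusters 1 to 3 together. The WT and caerulein tables have a mesothelium cluster of their own and the i4F table has none. Over all stellate cells the 9 mesothelial markers summed to 149.7, 201 and 493 CPM in i4F, 113 and 74.3 CPM in WT and 55.6 and 64.2 CPM in caerulein mice.

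Sub-cluster 6 carried all 12 macrophage markers and was led by Il1b, Lyz2 and Chil3, with Il1b at 1917 and 2268 CPM in i4F 1 and 2. Scrublet, which finds droplets that hold more than one cell, marked 76.76% of its cells as doublets against 0.501% in sub-cluster 1. It marked no stellate cell of i4F 3 and 1 of WT 1, so doublets were in effect not measured there. Marked cells were kept in the sums. For several immune and mesothelial gene groups the values below are also given without sub-clusters 5 and 6, an alternative chosen after the data were seen. It removes cells from the i4F sums alone, since WT and caerulein cells were not clustered again.

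**Figure D1:**
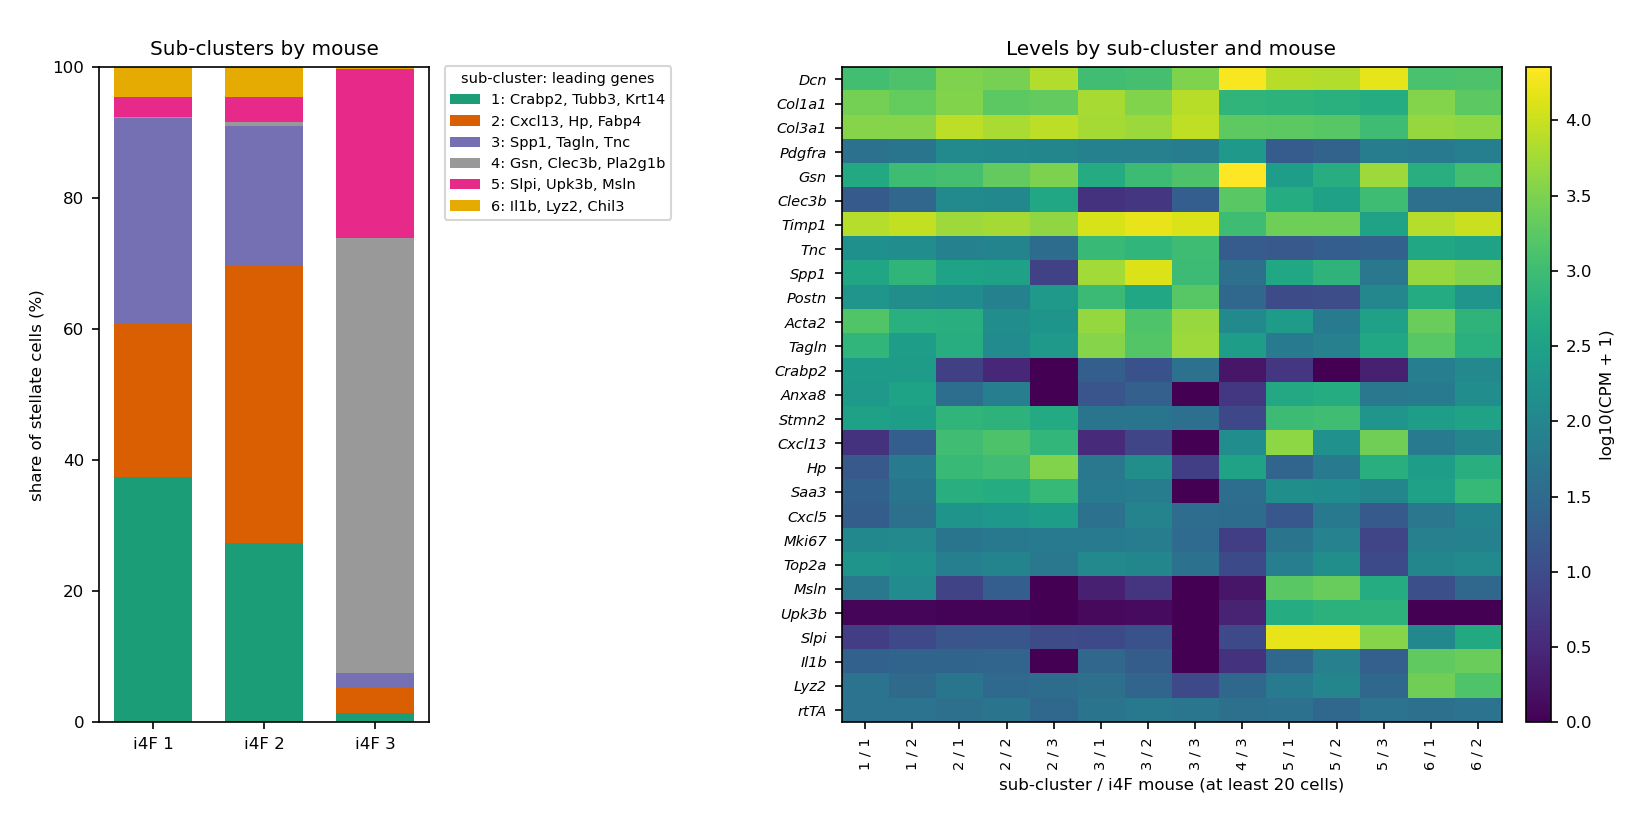
Left, stacked bars give the share of stellate cells (%) of each i4F mouse in the 6 sub-clusters. Right, a heat map gives log10(CPM + 1) of named genes (rows) in each sub-cluster and mouse with at least 20 cells (columns). Sub-clusters 4 and 5 make up most of i4F 3 and sub-clusters 1 to 3 most of i4F 1 and 2, and rtTA is present in all columns.

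The transactivator was read in every i4F mouse, i4F 3 included. rtTA gave 1901, 1115 and 168 UMIs in the stellate cells of i4F 1 to 3 and 4 and 2 UMIs in WT, or 43.9, 48.1 and 41.6 CPM against 0.749 and 0.219 CPM (log2 difference 6.83 ± 0.49, SE, adjusted p = 0.00428, edgeR). Pou5f1, which encodes Oct4, had 108, 110 and 0 UMIs in i4F 1 to 3 against 3 and 2 in WT. Sox2 had 12, 13 and 0 UMIs in i4F and none in WT. Neither was found in i4F 3, where a count of 0 allows up to 3 counts in 4041500 UMIs. The sequencing reads the 3′ end of transcripts, and how well it captures the cassette was not tested. Counts of the OSKM genes, Klf4 and Myc included, thus do not show whether the cassette was on or how strongly.

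Klf4 and Myc, whose transgenic and own copies share a gene name, were not above WT. Klf4 was at 206, 223 and 678 CPM in i4F and 689 and 788 CPM in WT, and Myc at 28.7, 34.9 and 142 CPM against 166 and 164 CPM. Both lay below the 2 WT mice in each i4F mouse, and furthest below in i4F 1 and 2. Of 18 reprogramming genes listed 7 were high enough to test, of which rtTA and the fucosyltransferase Fut4 rose and none fell, with a median log2 difference of 1.22. The i4F mice alone carry rtTA, so its rise was set by the design, and the counts and the median include it. Without i4F 3, 3 of the 7 rose and 2 fell. Of all genes tested, 12% rose and 8.58% fell with all mice, and 23.9% and 23.8% without i4F 3. The pluripotency genes Lin28a, Dppa4 and Zfp42 had no UMI in any stellate library, and Nanog had 4, 0 and 1 UMIs in i4F.

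The share of stellate cells varied more among mice than between groups. They made up 44.78%, 32.62% and 16.81% of all cells in i4F 1 to 3 and 26.3% and 39.63% in WT 1 and 2, with exact binomial 95% intervals of 15.98 to 17.67% for the lowest and 43.79 to 45.77% for the highest. The means were 31.4% ± 14.02 (SD, n = 3) and 32.97% ± 9.426 (SD, n = 2), a difference of -1.561 points (exact two-sided permutation p = 1, where 3 mice against 2 cannot give a p below 0.2). Both WT mice lay inside the range of the i4F mice. Of the non-immune cells, stellate cells were 77.82%, 63.1% and 26.76% in i4F and 27.73% and 44.93% in WT (exact permutation p = 0.6). Shares of dissociated cells also depend on which cells survive digestion.

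To ask what reprogramming went with in these cells, counts were summed over the stellate cells of each mouse and i4F was compared with WT by the quasi-likelihood test of edgeR, with the mouse as the replicate. A gene is said to rise or fall where its Benjamini-Hochberg adjusted p was under 0.05. Of 14818 genes tested, 20.6% were called, 12% higher and 8.58% lower in i4F, and the median log2 difference of all genes was 0.02. The calls were 58.3% higher ones, or 42.1% without TMM scaling between libraries. Without i4F 3, 47.8% of genes were called, 23.9% higher and 23.8% lower. For 54% of genes the i4F and WT mice did not overlap, with 20.6% higher and 33.3% lower in all i4F mice. The counts of list genes that follow are to be read against these shares.

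The number of calls rested on single mice. It was 3046 with all mice, 7672 without i4F 3, 369 without i4F 1, 27 without i4F 2, 11 without WT 1 and 16 without WT 2, where the WT mouse left is taken to vary like the other groups. Without caerulein 1 or caerulein 2, which share the estimate of spread, it was 105 or 138. WT 1 and all i4F libraries carry one series of library names and WT 2 another, and with the series as a term 16 genes were called. The series term is set by the difference between WT 1 and WT 2, so that fit in effect compares i4F with WT 1 alone. Without TMM scaling the median of all genes moved by -0.156, so list medians within that distance of 0 have no fixed direction. With genes absent from WT set at their bound (3 counts), the medians of the cell cycle, cytokine and lipid lists were 4.58, 0.42 and -0.29.

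Cell cycle genes had the largest share of called members among the gene lists. Of 48, all tested, 42 rose and 1 fell, with a median log2 difference of 4.58, and without i4F 3 there were 46 higher and 1 lower. Mki67, found in cycling cells, was at 78.5, 76 and 17.6 CPM in i4F and 3 and 0.767 CPM in WT (log2 difference 5.21 ± 0.85, SE, adjusted p = 0.0186). Topoisomerase Top2a, which untangles replicated chromosomes, was at 129, 111 and 25 CPM in i4F against 2.06 and 0.548 CPM (6.37 ± 0.93, adjusted p = 0.0177). Each i4F mouse was above both WT mice for the pair, and i4F 3 was the lowest of the i4F mice. With each cell thinned to 1000 UMIs, 6.06, 6.27 and 0.659% of i4F stellate cells had an Mki67 UMI, beside 0.281 and 0.0427% in WT. B cells of i4F 1 to 3 had 1.48, 0 and 1.44%, where the share of 0 allows up to 5.45%. In i4F 3, Mki67 was at 60.6 and 31.9 CPM in its 50 and 28 cells of sub-clusters 2 and 3. It was at 5.31 and 7.24 CPM in its 849 and 331 cells of sub-clusters 4 and 5.

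Several of the called genes act in mitosis. The ubiquitin-conjugating enzyme Ube2c, which acts at mitotic exit, was at 231, 179 and 40.3 CPM in i4F and 0.749 and 0.438 CPM in WT (log2 difference 8.18 ± 0.97, adjusted p = 0.0131). The mitotic kinase Cdk1 was at 146, 135 and 33.4 CPM against 1.69 and 0.767 CPM (6.65 ± 0.82, adjusted p = 0.014). The kinetochore protein Cenpf was at 63.1, 63 and 13.6 CPM against 0.375 and 0.219 CPM (adjusted p = 0.0147). Cyclin B1 (Ccnb1), the partner of Cdk1, was called as well.

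For some genes of the cycle the WT total was 3 UMIs or fewer, and their counts alone are given. The polo-like kinase Plk1 had 2405, 1221 and 23 UMIs in i4F 1 to 3 against 0 and 1 in WT. Cyclin A2 (Ccna2) had 3356, 1497 and 40 UMIs against 3 and 0. The spindle-associated hyaluronan receptor Hmmr had 2971, 1307 and 42 UMIs against 0 and 2. All passed the test, as did Cdca3, and Hmmr and Cdca3 are named by the size of their difference and stand in no list. Cyclin D2 (Ccnd2) was the member that fell, from 294 and 224 CPM in WT to 83, 100.1 and 137 CPM in i4F, and Ccnd1, Pcna, Rrm1, Mcm4 and Cks1b did not pass.

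Promoters of 3 of these genes are shown because the group moved together. They are the 200 bases upstream of the RefSeq start of Hmmr (GRCm38.p6, chr11:40733438-40733637, minus strand), Ube2c (chr2:164769729-164769928, plus strand) and Top2a (chr11:99024190-99024389, minus strand), written 5′ to 3′ on the gene's strand. Capitals mark CCAAT or its reverse complement ATTGG, the letters bound by the factor NF-Y in many mitotic promoters, and each window holds 5 of them, with overlapping ones counted apart.
Hmmr: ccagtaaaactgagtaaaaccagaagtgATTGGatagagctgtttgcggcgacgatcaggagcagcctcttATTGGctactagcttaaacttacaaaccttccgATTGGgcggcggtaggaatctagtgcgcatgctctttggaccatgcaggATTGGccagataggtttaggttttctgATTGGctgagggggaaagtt
Ube2c: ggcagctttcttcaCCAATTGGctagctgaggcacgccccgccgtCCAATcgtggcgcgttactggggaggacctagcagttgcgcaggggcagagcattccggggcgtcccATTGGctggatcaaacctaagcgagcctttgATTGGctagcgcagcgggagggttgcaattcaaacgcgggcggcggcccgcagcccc
Top2a: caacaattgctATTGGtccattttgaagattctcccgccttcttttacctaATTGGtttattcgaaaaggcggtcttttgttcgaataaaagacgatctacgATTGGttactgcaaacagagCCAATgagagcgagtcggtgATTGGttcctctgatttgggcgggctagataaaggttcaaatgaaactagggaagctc
Within 250 bases upstream, 30 of the 37 cell cycle genes with a promoter in the table (81.1%) held CCAAT on either strand, as did 37.5% of all 27025 promoters. A match describes the letters of this window and not the binding of a factor.

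Fibrillar collagens and their enzymes rose in part. Of 26 genes for these collagens and for their trimming, hydroxylation and cross-linking, 7 rose and 1 fell (median log2 difference 0.59), and without i4F 3 there were 15 and 4. The cross-linking enzyme lysyl oxidase (Lox) was at 726, 601 and 224 CPM in i4F and 131 and 96.5 CPM in WT (log2 difference 2.35 ± 0.49, adjusted p = 0.0262). Col12a1, a collagen of fibril surfaces in tissues under tension, was at 257, 123 and 56.9 CPM against 16.9 and 35.3 CPM (2.61 ± 0.68, adjusted p = 0.0399). The fibril-nucleating Col11a1 was at 33.2, 13.3 and 2.72 CPM against 0.562 and 0.438 CPM (5.25 ± 1.15, adjusted p = 0.0291). All 3 were above WT in each i4F mouse and lowest in i4F 3.

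The hydroxylases Plod2, P4ha3 and P3h1, which modify collagen chains before they assemble, and the oxidase Loxl1 also rose. Plod2 was at 214, 156 and 110.1 CPM against 74.2 and 81.2 CPM, and Loxl1 at 385, 450.2 and 381 CPM against 214 and 231 CPM. Col1a1 itself, at 3981, 2234 and 1481 CPM against 1210.5 and 1224 CPM in WT, did not pass (log2 difference 1.23 ± 0.42, adjusted p = 0.0755), although no i4F mouse overlapped with WT. Without i4F 3 it did (1.49 ± 0.30, adjusted p = 0.00717), as did Col3a1 (1.08 ± 0.19, adjusted p = 0.00434). Without i4F 1 the difference of Col1a1 was 0.76, with no call. Col5a3 fell, from 312 and 342 CPM in WT to 124, 101 and 131 CPM.

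Glycoproteins of the injured matrix rose in 6 of 19 cases and fell in none (median -0.07), with 8 higher and 9 lower without i4F 3. Tenascin C (Tnc, chr4:63959785-64047015), scarce in resting tissue, was at 396, 274 and 151 CPM in i4F and 4.31 and 3.83 CPM in WT (log2 difference 6.23 ± 0.50, adjusted p = 0.00489). Osteopontin (Spp1), an integrin ligand, was at 2334, 3738 and 151 CPM against 85 and 18.3 CPM (5.52 ± 1.41, adjusted p = 0.0388). Both lay far above WT in i4F 1 and 2, and Spp1 came near WT 1 in i4F 3. Periostin (Postn), which helps collagen assemble, was at 436, 176 and 229 CPM against 85.8 and 74.6 CPM (adjusted p = 0.0263). Hyaluronan synthase Has2, the hyaluronan receptor Cd44 and the pentraxin Ptx3 were the others that rose.

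The share of cells with a UMI was set beside that in B cells, which should lack these genes, as background. After thinning every cell to 1000 UMIs, 22.4, 15.3 and 3.29% of the stellate cells of i4F 1 to 3 had a Tnc UMI, against 0.741, 0 and 0% of B cells, where the shares of 0 allow up to 5.45% and 0.393%. For Spp1 the thinned shares were 37.8, 33.5 and 2.63% of stellate cells and 17, 3.64 and 0.785% of B cells. Both genes lay above the B cells of the same mouse in all i4F mice. Unthinned, Tnc was found in 52.1, 38.3 and 5.62% of stellate cells and Spp1 in 69.2, 56 and 4.14%, at the depths given above, while B cells had a median of 644, 480.5 and 1070 UMIs. Cells under 1000 UMIs were left out of the thinned shares, which were 314, 194 and 217 stellate cells and 342, 315 and 593 B cells.

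Matrix proteases and their inhibitors were counted beside 12% of all genes that rose and 8.58% that fell, and the number that fell lay near that share. Of 25 tested, 5 rose and 2 fell (median -0.22), with 9 and 12 without i4F 3. Timp1 (chrX:20870166-20874735) was at 8515, 9282 and 2788 CPM in i4F and 186 and 108 CPM in WT (log2 difference 5.71 ± 0.66, adjusted p = 0.0115). It had a UMI in 96.2, 93.3 and 27.8% of thinned stellate cells of i4F 1 to 3 and 7.86 and 6.54% of those of WT, and in 11.1, 9.09 and 0.393% of i4F B cells (unthinned, 97.4, 96.5 and 38.8% of i4F stellate cells). All i4F mice lay above WT, with i4F 3 between WT and the other two. The membrane protease Adam12 was at 63.1, 60.1 and 19.1 CPM against 4.31 and 4.93 CPM (adjusted p = 0.0184), and Adamts9 rose too. Mmp8 and Mmp9, which myeloid cells are known to release, were called too. Mmp8 had 119, 100 and 3 UMIs in i4F 1 to 3, Mmp9 had 74, 36 and 26, and each had 1 UMI in WT. The inhibitor Timp4 and Adamts12 fell.

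**Figure D2:**
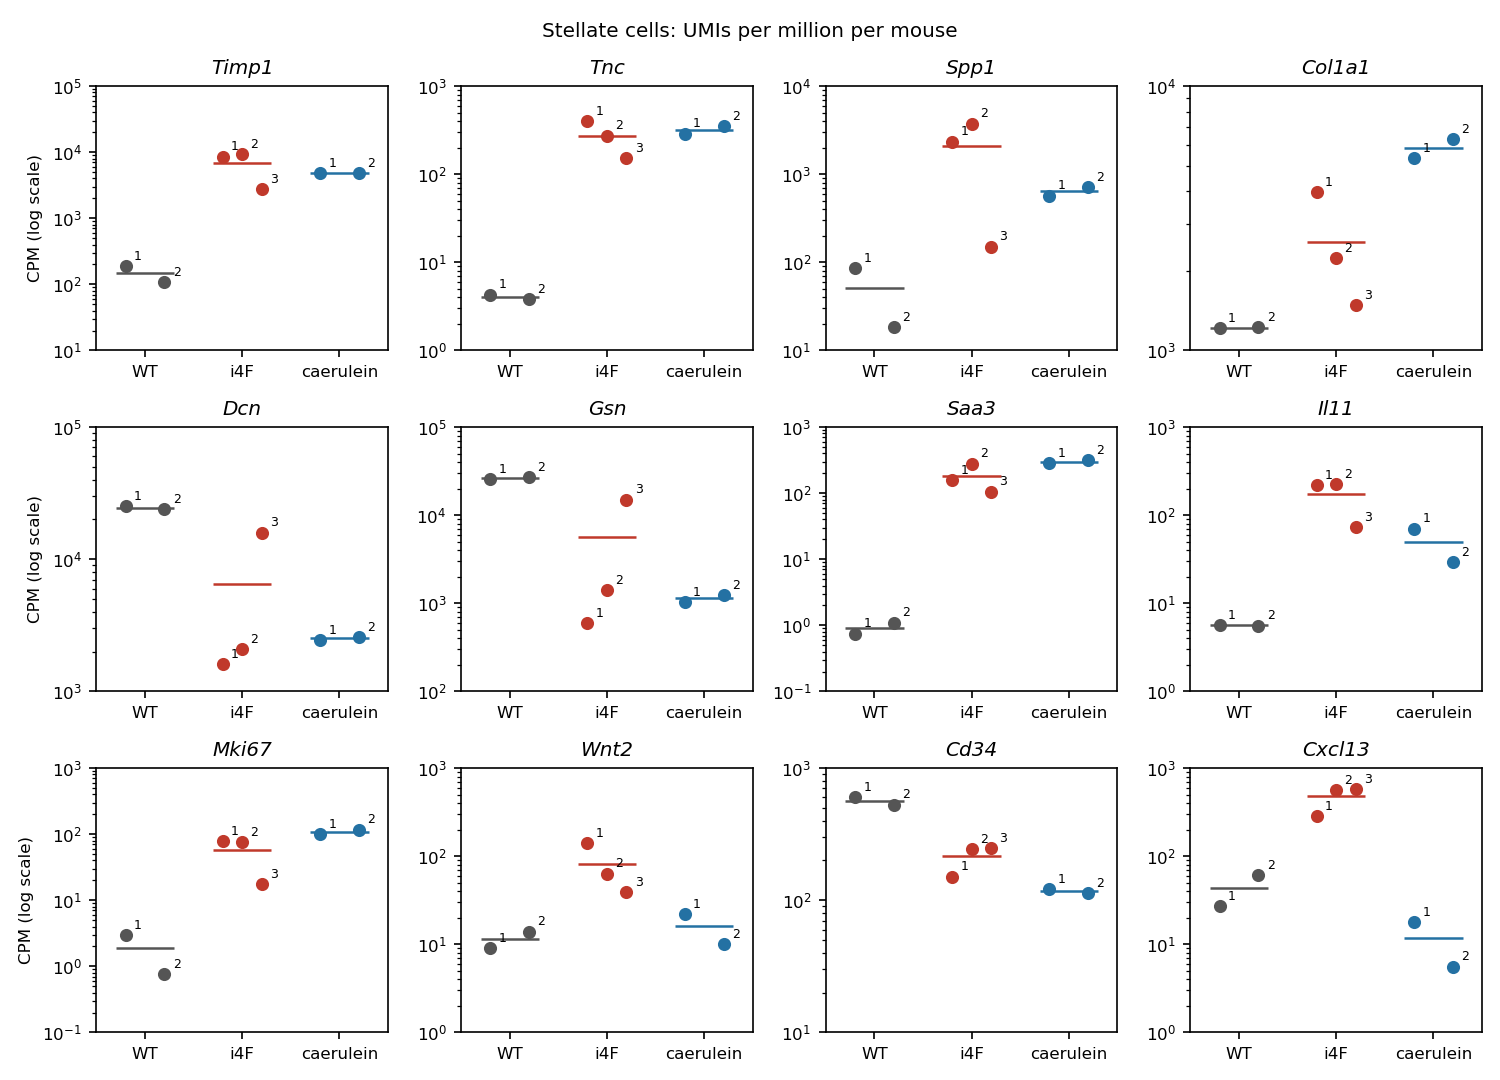
Level of 12 genes in stellate cells (CPM, log scale) in each mouse, numbered by replicate, of the WT, i4F and caerulein groups, with a bar at the group mean. Timp1, Tnc and Saa3 are above WT in each i4F mouse, while for Dcn and Gsn i4F 3 lies nearer to WT and i4F 1 and 2 near the caerulein mice.

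The 22 elastic fibre genes and small proteoglycans summed to 9172, 9727 and 24848 CPM in i4F 1 to 3 and 36589 and 33677 CPM in WT, lowest in i4F 1 and 2. Of 22, Vcan and Efemp2 rose and Fbln5 fell (median log2 difference -0.84), whereas without i4F 3 there were 4 higher and 12 lower. Dcn was at 1614, 2087 and 15893 CPM in i4F and 25073 and 24053 CPM in WT (log2 difference -1.73 ± 0.93, adjusted p = 0.203, and -3.60 ± 0.24 with adjusted p = 0.000119 without i4F 3). Gelsolin (Gsn), an actin-severing protein abundant in resting fibroblasts, was at 601, 1420.0 and 14967 CPM against 25703 and 27257 CPM (-2.04 ± 1.17, adjusted p = 0.226, and -4.59 ± 0.44 with adjusted p = 0.000413 without i4F 3). Neither gene passed over all mice, and i4F 3 lay closer to WT than to the other i4F mice for both.

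Among 20 genes of fibroblast progenitors and subtypes, 1 rose and 4 fell (median -1.29), with 1 and 14 without i4F 3. The peptidase Dpp4, a marker of fibroblast progenitors, fell from 91.6 and 76 CPM in WT to 35.6, 29.7 and 43.1 CPM in i4F (adjusted p = 0.0291). Cd34, on progenitor-like fibroblasts, fell from 601 and 528 CPM to 151, 244 and 248 CPM (adjusted p = 0.0259). The hedgehog effector Gli1 fell from 11.2 and 13.1 CPM to 0.785, 0.691 and 3.96 CPM (adjusted p = 0.0335). All i4F mice were below WT for each, and i4F 3 was the nearest to it. Sema3c fell as well. Lrrc15, a marker of myofibroblasts in tumours, had 0 and 3 UMIs in WT and 1349, 97 and 32 UMIs in i4F 1 to 3.

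Basement membrane genes fell in 4 of 16 cases and rose in none (median -0.90), and 12 of 16 fell without i4F 3. Nidogen 1 (Nid1), which links laminin to type IV collagen, was at 158, 211 and 414 CPM against 967 and 682 CPM in WT (adjusted p = 0.0447). Col15a1 was at 144, 127 and 205 CPM against 462 and 335 CPM (adjusted p = 0.0321). The i4F and WT mice did not overlap for either. Col4a5 and the laminin chain Lamb1 were the others called.

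Of 18 genes of quiescence and lipid handling tested, 1 rose and 1 fell (median -0.29), and without i4F 3 there were 1 and 10. The fatty acid carrier Fabp5 rose from 26.2 and 27.5 CPM to 174, 217 and 49 CPM (log2 difference 2.59 ± 0.58, adjusted p = 0.0301). The fatty acid transporter Cd36 fell from 11.2 and 8.87 CPM to 2.59, 2.5 and 5.2 CPM (adjusted p = 0.0463). Pparg, the lipid regulator that holds the cassette on one allele, was at 0.554, 0.518 and 5.69 CPM against 5.25 and 7.89 CPM (adjusted p = 0.214, and 0.00115 without i4F 3), and the part of the insertion in this level was not tested. Lipoprotein lipase (Lpl) was at 214, 272 and 1100.3 CPM against 1586 and 1253 CPM, with an adjusted p of 0.203 over all mice and 0.000174 without i4F 3.

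Whether contractile genes rose depended on the reference. Of 14 tested, none rose and 3 fell (Myl9, Myh11 and Lmod1) against all WT stellate cells, with a median of 0.25, and without i4F 3 there were 5 higher and 4 lower. Against the quiescent WT clusters alone 8 rose and none fell, in a comparison where 11.8% of all genes were higher and 7.86% lower. Acta2, the classical marker of stellate activation, was at 2345, 605 and 636 CPM in i4F, 1533 and 826 CPM in all WT stellate cells and 77.5 and 36.9 CPM in WT quiescent 1. Its log2 difference was 0.21 ± 0.63 (adjusted p = 0.826) against all WT stellate cells and 4.94 ± 0.80 (adjusted p = 0.0206) against the quiescent ones. Myh11 had a log2 difference of -5.59 ± 0.94 (adjusted p = 0.0196) with the contractile WT cluster and 1.49 ± 1.11 (adjusted p = 0.338) without it. Rgs5, at 1.34, 1.04 and 16.3 CPM in i4F and 354 and 176 CPM in WT, fell against all WT stellate cells (adjusted p = 0.0292), and against the quiescent ones had a log2 difference of 1.06 ± 1.28 (adjusted p = 0.555).

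**Figure D3:**
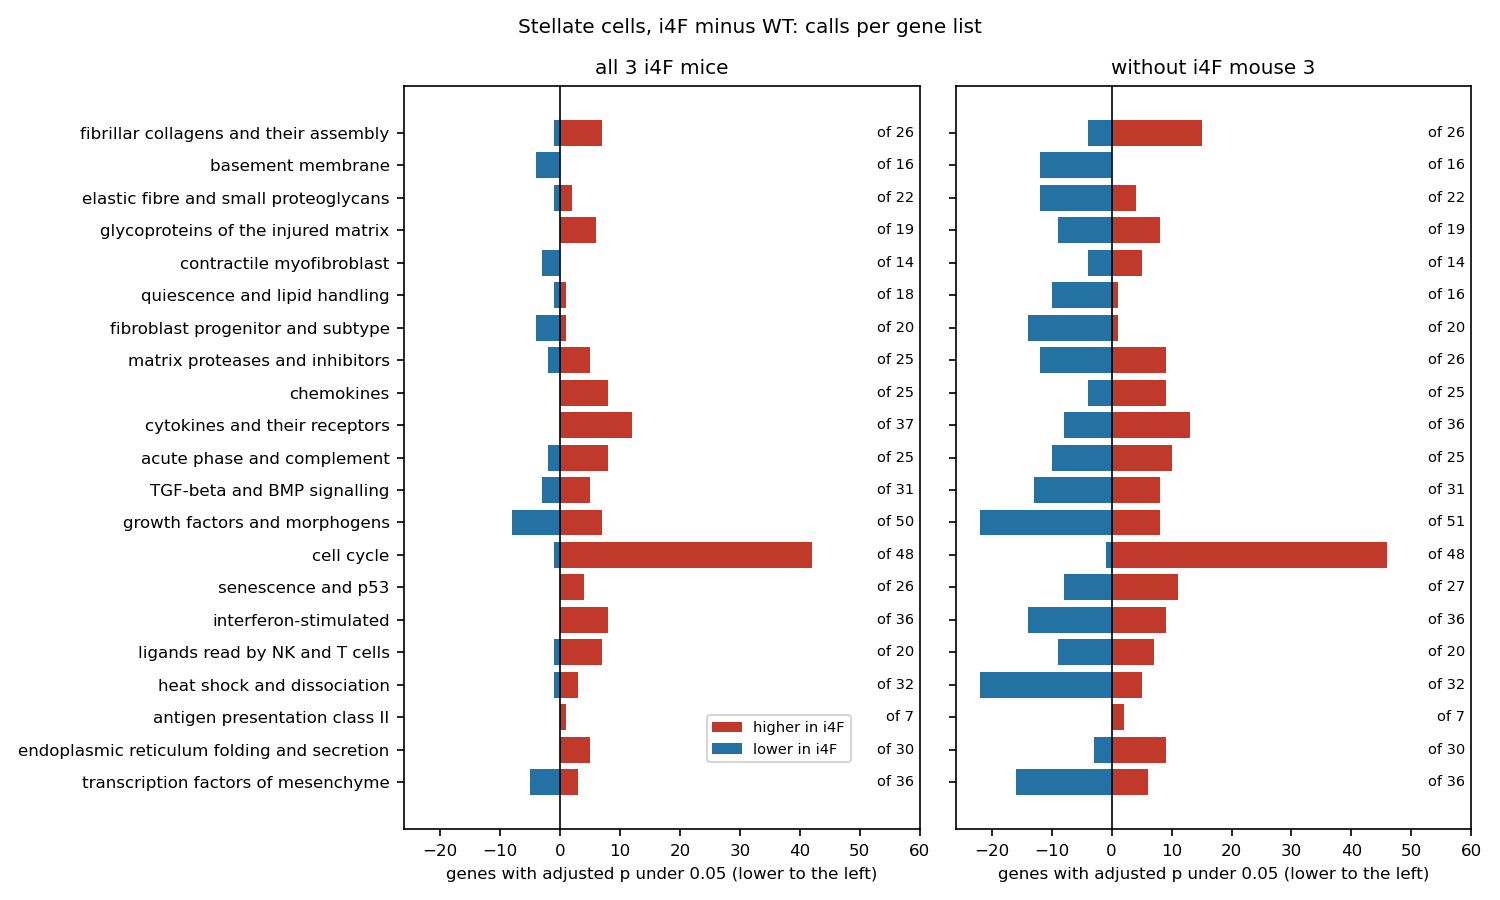
Number of genes of each list called at an adjusted p under 0.05 in i4F against WT stellate cells, higher to the right and lower to the left, with all mice and without i4F 3, beside the number tested. Cell cycle genes rise in both panels, and most lists gain genes called lower when i4F 3 is left out.

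Cytokines and their receptors rose in 12 of 37 cases and fell in none (median 0.42), with 13 and 8 without i4F 3 (median 0.04). Il11 (chr7:4772373-4782859), a fibroblast cytokine of the IL-6 family, was at 218, 223 and 73 CPM in i4F and 5.62 and 5.59 CPM in WT (log2 difference 5.08 ± 0.70, adjusted p = 0.0169). Lif, of the same family, was at 29.8, 32.4 and 25.7 CPM against 5.99 and 6.35 CPM (2.40 ± 0.21, adjusted p = 0.00711). The i4F mice lay above WT for both, with Lif nearly level across them and Il11 lowest in i4F 3. Clcf1, another member of the family, rose too, whereas Il6 did not pass, at 130.1, 253 and 429.5 CPM against 284 and 177 CPM (log2 difference 0.42 ± 0.47, adjusted p = 0.531).

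Il11 had a UMI in 13.3, 12.1 and 1.69% of thinned stellate cells of i4F 1 to 3 and in 0, 1.82 and 0% of B cells, where the shares of 0 allow up to 2.22% and 0.393% (unthinned, 40.1, 31.2 and 3.98% of stellate cells). The granulocyte factor Csf3 was at 9.67, 31.2 and 12.4 CPM against 0.375 and 1.31 CPM in WT (adjusted p = 0.0202). The TWEAK receptor Tnfrsf12a was at 344, 331 and 218 CPM against 141 and 176 CPM (adjusted p = 0.0417). For each of these the i4F mice lay above WT. Il13ra1 and the IL-33 receptor Il1rl1 were called as well.

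Others among the called cytokines are known from myeloid cells, and macrophage markers rose in the same sums. Il1b was at 125, 151 and 21.5 CPM in i4F and 0.375 and 1.21 CPM in WT (log2 difference 6.97, adjusted p = 0.0198). The 12 macrophage markers summed to 492, 397 and 242 CPM in i4F, 18.9 and 48.8 CPM in WT and 1845 and 1173 CPM after caerulein, and 10 of the 12 rose. The 8 neutrophil markers, of which 4 passed the filter on low counts, summed to 33.9, 51.7 and 92.5 CPM in i4F against 0.562 and 0.986 CPM in WT. Thinned Il1b UMIs were found in 5.05, 5.67 and 0.659% of stellate cells and 17.8, 10.9 and 3.01% of B cells (unthinned, 20.4, 18.6 and 1.56% of stellate cells). In WT 1 and 2 the thinned shares were 0.0935 and 0.0427% of stellate cells and 6.52 and 0% of B cells. That share of 0 allows up to 2.86%. B cells had Il1b more often than stellate cells in WT 1 too and are no measure of background for it. Osm, Tnf, Il1a and Il1rn belong to the same set of called cytokines. Among markers of other cells, 3 of 8 ductal and 4 of 9 mesothelial ones rose. Without sub-clusters 5 and 6, 1 of 8 ductal ones rose, and of 6 mesothelial ones tested 1 rose and 1 fell. Of 8 endothelial markers 3 fell, and 6 without i4F 3. Of 10 pericyte markers 4 fell (median -1.52), whereas against the quiescent WT clusters 1 rose and 1 fell (median 0.28). None of the 3 acinar markers passed over all mice, and all 3 fell without i4F 3 (median -4.81).

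Leaving out sub-clusters 5 and 6, where 12.9% of all genes were higher and 10.2% lower, gave 11 cytokines higher and 2 lower, and 4 of 12 macrophage markers rose. Il11 had a log2 difference of 5.13 ± 0.68 and Lif of 2.42 ± 0.21 in that comparison. That of Il1b went to 4.45 ± 1.13 (adjusted p = 0.0347) and that of Tnf to 0.23 ± 0.40 (adjusted p = 0.68). The part of myeloid RNA in these differences was not tested.

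Chemokines rose in 8 of 25 cases and fell in none (median 1.26), with 9 and 4 without i4F 3 (median 0.30) and 6 and 0 without sub-clusters 5 and 6. Cxcl5, a neutrophil attractant, was at 59.8, 123 and 48.5 CPM in i4F and 0.375 and 0.329 CPM in WT (log2 difference 7.90 ± 0.62, adjusted p = 0.00489, and 7.99 ± 0.57 without the 2 sub-clusters). The B cell attractant Cxcl13 was at 283, 563 and 581 CPM against 27.3 and 60.5 CPM (3.56 ± 0.70, adjusted p = 0.0247). Its thinned UMIs were in 2.6, 6.63 and 6.3% of stellate cells and 3.7, 0 and 0.524% of B cells, where the share of 0 allows up to 5.45%. Unthinned, the shares were 6.12, 12.1 and 7.5% of stellate cells and 2.94, 2.7 and 0.516% of B cells. In i4F 1 the thinned B cell share, of 135 cells, was above that of stellate cells, and the unthinned one was below it. The order in i4F 1 is thus not settled. Cxcl2 was at 556, 666 and 865 CPM against 85.4 and 234 CPM (adjusted p = 0.0393). For Cxcl13 and Cxcl2, i4F 3 was the highest mouse. Cxcl3 and the monocyte attractants Ccl3, Ccl8, Ccl9 and Ccl12 were also called, and Ccl11, an eosinophil attractant of resting fibroblasts, was at 92.1, 343 and 2232 CPM against 2635 and 1793 CPM (adjusted p = 0.459, and 0.00407 without i4F 3).

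Acute phase and complement genes rose in 8 of 25 cases and fell in 2 (median 0.25). The median turned to -0.26 without i4F 3, where 10 rose and 10 fell, and to -0.10 without sub-clusters 5 and 6, where 10 rose and 2 fell. Saa3 (chr7:46711998-46715700) was at 156, 280.0 and 105 CPM in i4F and 0.749 and 1.1 CPM in WT (log2 difference 7.69 ± 0.58, adjusted p = 0.00482). Haptoglobin (Hp) was at 209.6, 497 and 572 CPM against 56.8 and 90.9 CPM (adjusted p = 0.0242). The siderophore binder lipocalin 2 (Lcn2) was at 67, 147 and 72.5 CPM against 7.87 and 3.18 CPM (adjusted p = 0.0169). All i4F mice were above WT for each, i4F 3 included. In i4F 1 to 3 Lcn2 was at 1540, 2273 and 216 CPM in the mesothelial-like sub-cluster 5 and 117, 145 and 188 CPM in sub-cluster 2. The WT mesothelium cluster lies outside the stellate sums. Saa3 UMIs were in 7.8, 10.2 and 1.88% of thinned stellate cells and 5.93, 9.09 and 0.131% of B cells (unthinned, 22.5, 24.1 and 2.58% of stellate cells), so that in i4F 1 and 2 the share lay near background. The thinned B cell shares of i4F 1 and 2 rest on only 135 and 55 cells. Saa1, C5ar1 and the protease inhibitors Serpina3n, Serpina3m and Serpina3i rose as well, and tissue factor (F3) was among those that fell.

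TGF-β and BMP genes rose in 5 of 31 cases and fell in 3 (median -0.18), near the shares over all genes, with 8 and 13 without i4F 3. The activin A subunit Inhba was at 369, 212 and 107 CPM in i4F and 17.2 and 34.3 CPM in WT (log2 difference 3.28 ± 0.62, adjusted p = 0.0231). Its antagonist follistatin (Fst) was at 113, 98.8 and 51.5 CPM against 41.6 and 40.9 CPM (adjusted p = 0.0403). A further antagonist, Fstl3, was at 55.1, 72 and 36.6 CPM against 24.9 and 23.6 CPM (adjusted p = 0.0337). A ligand and its soluble inhibitors were thus higher together. The inhibitory Smad7 was also among those that rose, and Bmp5, Bmp6 and the BMP target Id2 fell.

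Of 50 other growth factors and morphogens tested, 7 rose and 8 fell (median -0.43), with 8 and 22 without i4F 3. Among ligands of the EGF family, epiregulin (Ereg) was at 49.2, 97.3 and 10.6 CPM in i4F and 1.31 and 2.85 CPM in WT (log2 difference 4.72 ± 0.96, adjusted p = 0.0258). Wnt2, a canonical Wnt ligand, was at 139.8, 63.4 and 38.8 CPM against 8.99 and 13.9 CPM (2.95 ± 0.67, adjusted p = 0.0309). The Wnt enhancer Rspo3 fell, from 151 and 222 CPM in WT to 17.3, 26.6 and 74 CPM (adjusted p = 0.0456). Wnt genes were not counted as a group, and of all genes 12% rose and 8.58% fell. Nrg1, Fgf2, Gdnf, Angptl4 and Wnt4 rose too, while Wnt5a, the epithelial growth factor Fgf10, Bdnf, pleiotrophin (Ptn), the hedgehog receptor Ptch1, its decoy Hhip and Gli1 fell.

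Senescence and p53 genes rose in 4 of 26 cases and fell in none (median 0.19), with 11 and 8 without i4F 3. The stress-responsive kinase Plk2 was at 92.7, 89.6 and 59.6 CPM against 23.8 and 29.6 CPM in WT (adjusted p = 0.0184). Lamin B1 (Lmnb1), which senescent cells lose, rose from 3.37 and 3.73 CPM to 22, 22 and 9.4 CPM (adjusted p = 0.0184). Sesn2 and the p53 target Aen rose as well. The cell cycle inhibitor p21 (Cdkn1a) was at 275, 249.9 and 441 CPM against 307 and 539.8 CPM (adjusted p = 0.654).

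Interferon-stimulated genes rose in 8 of 36 cases and fell in none, and without i4F 3 there were 9 and 14 (median 0.01 with all mice, near that of all genes). The ubiquitin-like Isg15 was at 322, 387 and 197 CPM in i4F against 121 and 105 CPM (log2 difference 1.57 ± 0.32, adjusted p = 0.0259). Irf7, a regulator of the response, was at 74.3, 131 and 87.8 CPM against 43.8 and 49.6 CPM (adjusted p = 0.0299). Both were above WT in every i4F mouse, as were Usp18, Oas1a, Oasl2, Rsad2, Bst2 and Ifi44, which were also called. The class I gene H2-K1 was at 217, 239.6 and 953 CPM against 622 and 508 CPM (adjusted p = 0.934, and 0.00119 without i4F 3), with i4F 1 and 2 below WT and i4F 3 above it.

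Ligands read by NK and T cells rose in 7 of 20 cases and fell in 1 (median -0.02). Without i4F 3 there were 7 and 9 (median -0.48), and 6 and 1 without sub-clusters 5 and 6. Over all mice the 1 member that fell was Sema3c, a secreted semaphorin that stands in the progenitor list too. Nectin2, a ligand of DNAM-1 and TIGIT, was at 78.3, 74.6 and 51.5 CPM in i4F against 23 and 25.1 CPM (log2 difference 1.65 ± 0.24, adjusted p = 0.0174). Pvr, of the same family, was at 49.3, 48.7 and 44 CPM against 30 and 30.1 CPM (adjusted p = 0.0285). The NKG2D ligand Ulbp1 was low, at 6.63, 6.09 and 3.46 CPM against 2.25 and 0.767 CPM (adjusted p = 0.029). All i4F mice were above WT for these genes. Raet1d and Raet1e, which also bind NKG2D, Cd48 and the TRAIL receptor Tnfrsf10b rose too, while the checkpoint ligand Cd274 did not pass, at 1.55, 2.59 and 5.69 CPM against 4.31 and 2.52 CPM.

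Of 7 genes of antigen-presenting fibroblasts tested, which are class II genes and Slpi, Slpi alone rose and none fell (median 2.87). The median was 0.60 without i4F 3, where 2 rose, and 0.51 without sub-clusters 5 and 6, where 1 rose. Cd74, the invariant chain, was at 44.6, 17.1 and 553 CPM in i4F and 8.62 and 31.3 CPM in WT (adjusted p = 0.141), and i4F 3 stood far above all other mice. At the finer clustering a group of 34 cells of i4F 3 was led by Cd74, H2-Aa and immunoglobulin genes of B cells. The part of B cell RNA in the level of i4F 3 was not tested.

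Counts of stress, secretory and transcription factor genes stand beside 12% of all genes higher and 8.58% lower, or 23.9% and 23.8% without i4F 3. Heat shock and dissociation genes, which digestion of tissue can induce, rose in 3 of 32 cases and fell in 1 (median -0.82), and rose in 5 and fell in 22 without i4F 3. Genes for folding and secretion in the endoplasmic reticulum rose in 5 of 30 cases and fell in none (median 0.08), with 9 and 3 without i4F 3. Of 36 mesenchymal transcription factors 3 rose and 5 fell (median -0.30), and 6 and 16 without i4F 3. Runx1, which is induced in activated fibroblasts, was at 207, 123 and 92.3 CPM against 20.6 and 43.4 CPM (log2 difference 2.27 ± 0.48, adjusted p = 0.0273). Runx2 and Sox11 also rose, and Zeb1, Snai2, Meox2, Mef2c and Tbx2 fell.

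Other large called differences fell outside the groups above or in the antigen-presenting list. Crabp2, a retinoic acid carrier, was at 111, 77.8 and 24.5 CPM in i4F and 0.562 and 0.438 CPM in WT (log2 difference 7.32 ± 0.84, adjusted p = 0.0115). Slpi, a secreted protease inhibitor, was at 295, 390.3 and 626 CPM against 3.56 and 1.64 CPM (7.62 ± 0.62, adjusted p = 0.00489, and 2.03 ± 0.42 without sub-clusters 5 and 6), and Msln rose as well. After thinning, Slpi UMIs were in 2.77, 4.1 and 3.39% of the stellate cells of i4F 1 to 3 and 8.89, 5.45 and 4.71% of their B cells. Unthinned, the shares were 8.74, 11.8 and 6.64% of stellate cells and 6.29, 3.51 and 5.16% of B cells. In WT the thinned shares were 0.374 and 0.0427% of stellate cells and 4.35 and 3.81% of B cells. B cells thus had Slpi more often than stellate cells in WT too and are no measure of background for it. In i4F, Slpi was far higher in sub-cluster 5 than in sub-clusters 1 to 3. Among those that fell, the BMP-like Gdf10 was at 9.9, 25.4 and 74.2 CPM against 258 and 285 CPM (-2.75 ± 0.72, adjusted p = 0.0405). For Gdf10 and Crabp2, i4F 3 was the mouse closest to WT. The lipid transporter Abca9, Tppp3, Ndufa4l2, Matn2, Antxr2, Fam129a, Itgbl1 and C1qtnf2 fell too.

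**Figure D4:**
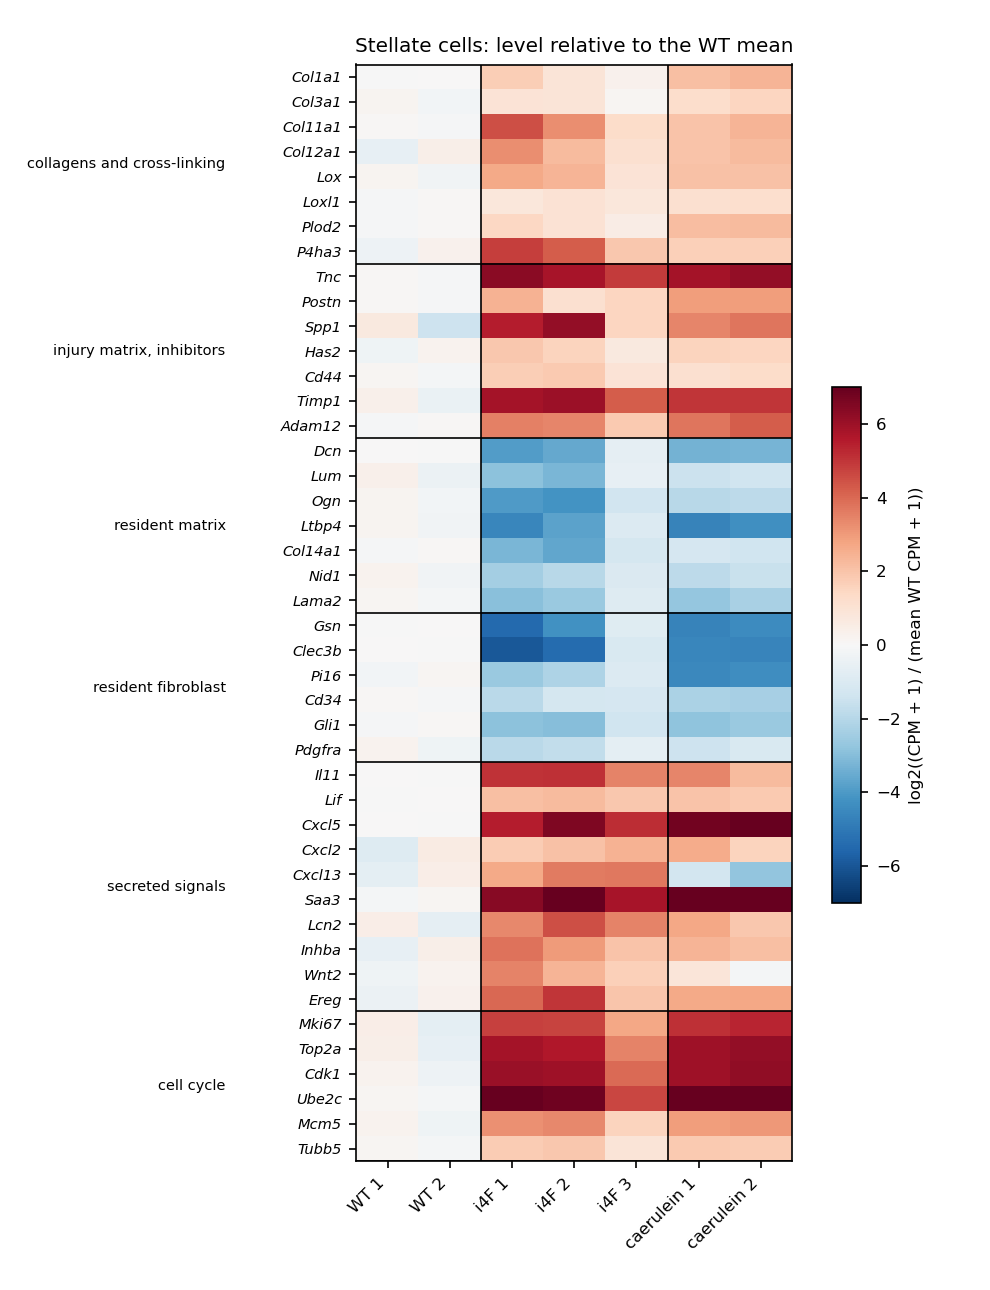
Level of named genes (rows, grouped by role) in the stellate cells of each mouse (columns), as log2((CPM + 1) / (mean WT CPM + 1)), red above and blue below the WT mean. The colours of i4F 3 are paler than those of i4F 1 and 2 for most rows, and Cxcl13 is high in i4F mice and low in caerulein mice.

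To set reprogramming beside injury, the same fit compared i4F with caerulein mice. The i4F mice drank doxycycline with sucrose and the caerulein mice have neither in their label. In this comparison OSKM thus cannot be told apart from doxycycline, sucrose or the length of treatment. The i4F mice are shared with the comparison above, and all i4F libraries bear one series of names and both caerulein libraries another, so that only the 2 WT mice tell the series from the treatment. Of 14818 genes, 0.459% were called, 0.304% higher and 0.155% lower in i4F, 68 in all, and 2524 had an unadjusted p under 0.05. Without i4F 3, 11.5% were called, 5.58% higher and 5.92% lower, or 1846 genes. With the series as a term, an alternative chosen after the data were seen, edgeR called 0 genes, with 1229 at an unadjusted p under 0.05, and none of the genes named below passed. Without caerulein 1 or caerulein 2 edgeR called 0 genes, with 1359 or 1324 at an unadjusted p under 0.05. Without WT 1 or WT 2 there were 4 calls, and without i4F 1 or i4F 2 there were 18 or 6. The calls held Ccnd1 of 48 cell cycle genes, Irf7 and Usp18 of 36 interferon genes and none of the 14 contractile genes. Without i4F 3, 14 of the 36 interferon genes were higher and 2 lower in i4F, 2 of the 48 cell cycle genes were higher and 1 lower, and none of the contractile genes was called. A p that misses the threshold does not show that the cells were alike.

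Levels of Mki67, Timp1 and Tnc after caerulein are set beside those in i4F mice, and caerulein was not tested against WT here. Mki67 was at 100.4 and 117 CPM in caerulein 1 and 2, beside 78.5, 76 and 17.6 CPM in i4F 1 to 3 (log2 difference -0.91 ± 0.61, adjusted p = 0.508). Timp1 was at 4832 and 4757 CPM, within the range of the i4F mice (0.51 ± 0.50, adjusted p = 0.668). Tnc was at 289 and 353 CPM (-0.22 ± 0.36, adjusted p = 0.814). For Mki67 both caerulein mice lay above the i4F mice, while for Timp1 and Tnc the groups overlapped. Col1a1, at 5328 and 6313 CPM, was higher in both caerulein mice than in any i4F mouse but did not pass (-1.17 ± 0.40, adjusted p = 0.207). Dcn was at 2442 and 2586 CPM, near i4F 1 and 2.

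Genes higher in i4F than after caerulein included Anxa8, a membrane-binding annexin, at 110.5, 145 and 18.8 CPM in i4F, 0.322 and 0.266 CPM after caerulein and 0.749 and 1.1 CPM in WT (log2 difference from caerulein 8.16 ± 1.09, adjusted p = 0.049). Crabp2 was at 0.681 and 0.932 CPM after caerulein (6.52 ± 0.76, adjusted p = 0.0413). Cxcl13 was at 17.8 and 5.59 CPM (5.29 ± 0.77, adjusted p = 0.049). The groups did not overlap for these, and caerulein mice lay below WT for Anxa8 and Cxcl13. The monoglyceride lipase Mgll was at 82.8, 59.7 and 39.1 CPM in i4F against 3.15 and 2.66 CPM (4.36 ± 0.44, adjusted p = 0.0298), and Usp18 at 33.3, 49.9 and 20 CPM against 4.73 and 6.53 CPM (2.64 ± 0.38, adjusted p = 0.049). Slpi and Msln were called too, and without sub-clusters 5 and 6 the difference of Slpi was -0.41.

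Of the 68 calls, 23 were lower in i4F than after caerulein, while without sub-clusters 5 and 6 there were 62 higher and 110 lower. That alternative takes mesothelial-like and macrophage-like cells out of the i4F sums and leaves any such cells in the caerulein sums. Fdxr, a mitochondrial reductase, was at 21.5, 21.9 and 13.6 CPM against 74.4 and 86.2 CPM (-2.06 ± 0.23, adjusted p = 0.0358). The collagen prolyl hydroxylase P4ha2 was at 136, 95.7 and 94.3 CPM against 331 and 305 CPM (-1.55 ± 0.22, adjusted p = 0.049). It was the 1 called gene of the 26 in the collagen list. Maged2, Lrrc17, Grb10 and Ccdc28b were lower as well, with log2 differences between -2.06 and -1.40. So were Col6a3 and, of the macrophage list, Adgre1 and Cd68, whose list sums are given above for both groups.

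Whether the changes were shared with another cell type of the same mice was asked of endothelial cells (1422 in i4F, from 311 to 664 a mouse), in a fit with the mouse as a block and an interaction term. Of 13784 genes, 5.11% changed differently in the cell types, 2.55% more upward and 2.57% more downward in stellate cells. The 705 calls became 350 without WT 1, 298 without WT 2, 446 without i4F 1, 296 without i4F 2 and 2524 without i4F 3. Cell cycle genes changed more upward in stellate cells in 23 of 48 cases and more downward in none. Cdk1 had a log2 difference of 6.65 in stellate and 1.53 in endothelial cells (interaction 4.99 ± 0.54, SE, adjusted p = 0.000167). It was at 29.5, 31.3 and 1.3 CPM in the endothelial cells of i4F, where i4F 3 had a single UMI, and 9.07 and 4.87 CPM in those of WT.

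Interferon genes also differed, with 15 of 36 changed more upward in stellate cells and 1 more downward. Isg15 had a log2 difference of 1.57 ± 0.32 in stellate and -0.84 ± 0.35 in endothelial cells (interaction adjusted p = 0.00388). The direction in endothelial cells was thus the opposite one. Stmn2, a regulator of microtubules known from neurons, was at 306, 391 and 93 CPM in i4F stellate cells and 4.5 and 2.08 CPM in WT (interaction 7.13 ± 0.66, adjusted p = 3.82e-05). In endothelial cells it was at 111, 27.8 and 68.9 CPM in i4F and 150.3 and 106 CPM in WT.

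Proteases differed the other way. Of the proteases and inhibitors 8 of 24 changed more downward in stellate cells and none more upward. Of 14 contractile genes 5 changed more downward with all WT stellate cells, but 4 more upward and none more downward against the quiescent WT clusters. The latter fit was chosen after the data were seen, and over all genes it had 361 more upward and 304 more downward. Ptgs2, the inducible cyclooxygenase, was at 114, 101 and 397 CPM in stellate cells of i4F and 264 and 249 CPM in those of WT. In endothelial cells it was at 45.4, 26.1 and 29.9 CPM in i4F and 0 and 0.812 CPM in WT (interaction adjusted p = 0.0013), and with 0 and 2 UMIs in WT the fitted size, -6.62, is no bound. Ptgs2 thus overlapped between the groups in stellate cells and not in endothelial cells.

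The endothelial classes were not built alike, since the WT table sets apart a small cluster named Lymph nodes and the i4F table has none. The lymphatic marker Lyve1 stood at 304, 231 and 329 CPM in i4F and 1.43 and 3.25 CPM in WT endothelial cells (interaction -6.80 ± 0.74), and at 6178 and 4921 CPM in the Lymph nodes cluster. With that cluster added to the WT endothelial cells, an alternative chosen after the data were seen, Lyve1 was at 328 and 302 CPM there, and its interaction was 0.21 (edgeR, adjusted p = 0.895). In the same fit 597 genes passed, and Fndc1 no longer did. The interaction of Myh11 was -5.72 ± 0.78 with all WT stellate cells and 1.25 against the quiescent ones.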

How the data were processed

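Dissociated pancreas of 7 mice was profiled by 10x 3′ single-cell RNA sequencing. Per the study's methods and the submitters' notes, the authors ran Cell Ranger on mm10, kept cells with at least 150 genes and at most 5% mitochondrial reads, clustered each condition by itself in Seurat version 3 (SCTransform, 20 principal components, resolution 0.2) and named the clusters. Deposited were UMI counts for each cell and gene, the percent of mitochondrial and ribosomal reads per cell and SCTransform totals, which the authors made as corrected scores. The deposited genes included 3 of the 22 acinar and 4 of the 7 islet markers listed here, and the others were absent. The authors ran SoupX against free RNA, and whether the deposited counts precede that step is not stated in the sources used here. A gene that the table of a condition did not list was counted as 0 there (28166 of 33864 genes stood in the WT table, 31676 in that of i4F, 28764 in that of caerulein).

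Stellate cells were taken by the authors' cluster names, and counts were summed per mouse, giving 5338334 and 9127167 UMIs in WT, 43312159, 23156812 and 4041500 in i4F and 27911927 and 7509422 in caerulein mice. Genes were filtered by filterByExpr and tested with the quasi-likelihood test of edgeR 4.0.16 (R 4.3.3, TMM, 3 groups in one fit, Benjamini-Hochberg over all genes, threshold 0.05, two-sided). Each SE of a log2 difference is its absolute size divided by the square root of the F statistic of that test, and adds nothing to the test. Replicates are separate mice. The named genes are those of the gene and marker lists, with up to 12 genes a direction by size of the log2 difference against WT, and up to 6 against caerulein and in the interaction, among called genes with a mean log2 CPM of at least 5 and groups that did not overlap (in the interaction, in the ratio of stellate to endothelial CPM of each mouse). Sub-clusters came from Seurat 5.3.0 and doublets from Scrublet in scanpy 1.11.5, and exact tests and intervals from scipy 1.17.1. Alternatives included DESeq2 1.42.0. Libraries shared 3 to 39 cell barcodes a pair, at most 0.411% of the smaller one.

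The fits were tested on simulated counts with a common dispersion of 0.0999 and 200 changed genes. The rates below hold for such counts only. How often the fits err where a mouse stands apart from its group, or where a large share of genes changes, was not tested. Against WT (14506 genes) the fit recovered 79% of 4-fold and 96% of 16-fold changes with 6 false calls, against caerulein 80% and 96% with 10, and in the interaction (13602 genes) 16% and 77% with 2. Members and lists were chosen with earlier results of these data known. Promoters are from RefSeq. Some genes of the lists are counted but not reported here by name. All intervals cover counting error only.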

Additional observations from a re-analysis of the deposited data

Results flagged for a closer look

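The difference between i4F and WT was compared between stellate and endothelial cells of the same mice by the interaction test of edgeR, and 705 genes passed. The rule for named genes gave 6 in each direction. More upward in stellate cells were Stmn2 (7.13 on the log2 scale), the kinetochore genes Cenpf (5.32) and Cenpa (4.47), the linker histone Hist1h1b (5.05), the kinase Cdk1 (4.99) and the core histone Hist1h2ae (4.60). Of these, Stmn2 was -0.30 with ductal cells in place of endothelial cells and Cenpf was -1.68 without WT 2. With ductal cells, 2 of the 12 named genes kept direction and call, 9 no longer passed and Stmn2 turned.

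More downward in stellate cells were the lymphatic marker Lyve1 (-6.80), the cyclooxygenase Ptgs2 (-6.62), Fndc1 (-6.44), smooth muscle myosin Myh11 (-5.72), the matrix protein Vwa1 (-5.27) and the glutathione peroxidase Gpx3 (-4.91). Ptgs2 had 0 and 2 UMIs in WT endothelial cells, so its fitted size is no bound. The WT table has a cluster named Lymph nodes apart from its endothelial cells and the i4F table has none. With that cluster added to the WT endothelial cells Lyve1 was at 0.21 and Fndc1 at -1.69, and neither passed, while the other 10 named genes kept direction and call. The value of Myh11 was 1.25 against the quiescent WT clusters. The part of the small number of endothelial cells in these values was not tested.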

How the results depend on the processing

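The count of genes called against WT, 3046, was 110 with only the 2 groups compared, 16 with the library name series as a term, 31 with i4F activated stellate 2 alone, 7094 with activated stellate 1 alone, 4942 with no filter and 1698 with all libraries thinned to the smallest total. It was 6893 for activated stellate 1 against the quiescent WT clusters, an alternative added after seeing the data, 2844 without the cells Scrublet marked and 2890 without the cells of highest doublet score, also added, and ran from 11 to 7672 with 1 mouse left out. Against caerulein, the 68 calls became 4 with 2 groups only, 785 with DESeq2, 1298 with activated stellate 1, 1396 with activated stellate 2, 1210 with no filter, 14 after thinning and, in added alternatives, 0 with the library name series as a term and 172 without sub-clusters 5 and 6, with a range of 0 to 1846 when a mouse was left out. The interaction had 705 calls, 258 with ductal cells, 1114 with no filter and 296 to 2524 with a mouse left out. Fewer samples, cells or reads are part of the construction of several of these, and otherwise the cause was not tested.

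The difference in stellate share, -1.56 points, was 19.56 points among non-immune cells and ran from -8.25 to 5.74 points with a mouse left out, at 5.10 without WT 2 and 5.74 without i4F 3. As a log2 ratio from edgeR on cell numbers it was -0.07, and 0.25 with the replicate block. The sub-clusters numbered 12 at a resolution of 0.5. Deviations of same-numbered mice from their group means had correlations from -0.0102 to 0.0128. These values cannot show whether the replicate numbers pair the mice. The deviations of WT 1 and WT 2 mirror each other, and those of i4F 1 and i4F 2 depend on i4F 3. With the replicate block 6506 genes were called against WT and 883 against caerulein. i4F 3 alone has its replicate number, so the block in effect takes that mouse out of the comparison. The same holds for the log2 ratio of cell numbers with the block.

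Direction turned for single genes. Acta2 was at -3.64 against the WT activated cluster alone, -2.66 in activated stellate 2 alone, -0.11 with the series term, -0.09 without WT 2 and -0.74 without i4F 1 (from -0.74 to 0.61 with a mouse left out). Against the WT activated cluster alone, Antxr2 was at 1.52, Cd34 3.30, Dcn 2.43, Gdf10 1.73, Gsn 1.62, Itgbl1 1.41, Matn2 0.14, Nid1 1.29 and Rspo3 1.40. Col1a1 was at -0.72 in activated stellate 2 alone, a cluster whose make-up differed among the mice. Against quiescent WT cells Myh11 was at 1.49 (0.17 for activated stellate 1), Rgs5 at 1.06 and the interaction of Myh11 at 1.25. Slpi was at -0.41 against caerulein without sub-clusters 5 and 6, and in the interaction Cenpf was at -1.68 without WT 2 (up to 6.79 with another mouse left out), Stmn2 at -0.30 with ductal cells and Lyve1 at 0.21 with the WT cluster named Lymph nodes added, a further added alternative. Of the values of the genes tracked against WT, 764 kept direction and side of the threshold, 19 passed newly, 324 passed no longer and 18 turned. Against caerulein these were 149, 0, 101 and 1, and in the interaction 125, 0, 15 and 4.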
